A study of Mus musculus with 2 samples.

Results

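Glycogen is the branched glucose store of animal cells, and the 8 genes described here build it or take it apart: Gys1, Gys2, Gbe1, Gyg, Ugp2, Pygl, Pygb and Ppp1r3c. They were chosen by name for their role, and all transcripts of each gene were summed. All 8 had reads in both libraries, and all 8 passed the minimum of 20 reads over both libraries that 7515 of 15523 detected genes passed. The tissue was interscapular brown fat, the heat-producing depot between the shoulder blades, of male wild type C57BL/6N mice aged 20 weeks. One group, labelled ctrl, is called control here, and its housing was given only as the general 22 to 24 °C. The other, labelled cold, was a pool of 3 mice housed singly at 4 °C for 24 h. The sources used here give no pool size for the control, and they tie single housing to the cold mice. The treatment text of both samples describes the cold stay, and the extraction text speaks of epididymal white fat, so groups were taken from the treatment label and the tissue from the tissue label.

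In glycogen synthesis, phosphoglucomutase turns glucose 6-phosphate into glucose 1-phosphate, Ugp2 activates it to UDP-glucose, and glycogenin (Gyg) primes a chain that glycogen synthase (Gys1, the muscle form, and Gys2, the liver form) lengthens and the branching enzyme Gbe1 branches. In breakdown, glycogen phosphorylase (Pygl, the liver form, and Pygb, the brain form) releases glucose 1-phosphate from the chain ends. Ppp1r3c brings protein phosphatase 1 to glycogen, where it switches synthase on and phosphorylase off. Adrenergic signals, which cold raises in brown fat, act through cAMP and phosphorylase kinase to switch the phosphorylase protein on by phosphorylation.

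Each group was 1 library of native poly(A)+ RNA read molecule by molecule on a nanopore from the 3′ end, with 1698124 reads in the control library and 1215617 in the cold library. With 1 library per group there are no replicates, so the conditions could not be tested against each other and no p-value is given. Values in parentheses are 95% exact intervals. They cover counting error of these 2 libraries only. Levels are given as RPM, the reads of a gene per 1000000 reads of its library. Ratios of cold to control were formed after scaling by edgeR's trimmed mean of M-values (TMM), under which the median gene stood at a log2 ratio of 0.00. Scaling by total reads instead moved that median to 0.18, and by total reads without mitochondrially encoded genes to 0.13. In bulk tissue, fewer cells of a type and less RNA per cell cannot be told apart.

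Brown fat markers were abundant, with Ucp1, the uncoupling protein, at 8751 RPM in the control library and 11949 in the cold library. The 13 skeletal muscle markers summed to 422 RPM (392 to 454) in the control library and 1686 (1614 to 1761) in the cold library, with 12 of the 12 that passed the minimum higher and none at 0. Muscle is rich in glycogen enzymes. Liver shares isoforms with this gene set as well, and its markers Alb, Apoa1, Ttr, Serpina1a and Fgb had no read in either library. The other 2 of the 7 liver markers, Apoc3 and Cyp2e1, had 10 and 16 reads in the control library and 6 and 44 in the cold library, which brought the liver list to 15.3 RPM (10 to 22.4) and 41.1 (30.5 to 54.2). The 7 macrophage markers summed to 55.4 RPM (44.7 to 67.7) and 97.9 (81.1 to 117). Cold over control, the summed ratio was 1.21 (1.05 to 1.38) for 6 endothelial, 0.868 (0.677 to 1.11) for 5 nerve and Schwann cell, 0.876 (0.834 to 0.920) for 5 erythrocyte, 2.46 (2.06 to 2.94) for 3 white adipocyte and 1.19 (1.18 to 1.21) for 8 brown adipocyte markers. The white adipocyte markers were split, with Retn at 2.08 (1.53 to 2.84) and Npr3 at 3.73 (2.91 to 4.81), and the leptin gene Lep, with 36 and 5 reads, at 0.171 (0.0525 to 0.438). The brown adipocyte list, which holds the general adipocyte genes Adipoq, Plin1 and Fabp4, was split too, with 2 intervals below 1 and 6 above. Fabp4, with 20610 and 20787 reads, and Ucp1, with 14860 and 14526, made up most of its 44682 and 43278 reads. Among these lists, Ncam1 of the nerve list was the one gene at 0.

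Pygl, the most abundant member, was 2.01-fold lower in the cold library (1.78 to 2.26). The branching enzyme Gbe1 was 1.38-fold lower (1.17 to 1.64), and Ugp2 was 1.27-fold lower (1.04 to 1.56), the latter with an interval that reached 1 under both total-read scalings. The intervals of Gys1, Gys2, Gyg, Pygb and Ppp1r3c spanned a ratio of 1. Summed, the 8 members had 2217 reads in the control library and 1296 in the cold library, 1.39-fold lower (1.29 to 1.49), with Pygl contributing 950 and 384 of them. In all, 3 members had an interval below 1 and 0 above it, against 11.3% of the 7515 genes below and 11.3% above. Intervals narrow with depth. Among the 2744 genes in the members' own range of 88 to 1334 summed reads, 16.0% lay below and 17.5% above. At least 2-fold lower with an interval off 1 was 1 member, Pygl, and at least 2-fold higher were 0, against 4.07% and 4.18% of all genes tested. The median log2 ratio of the 8 members was -0.35, beside 0.00 for all genes, and -0.17 with total reads, where the median of all genes was 0.18. With total reads the background was 6.20% of genes below and 18.1% above.

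The sequences upstream of the annotated starts are shown for the members with lower intervals and, for contrast, for Gys1, whose interval spanned 1. RefSeq promoters on GRCm38.p6 were found for 7 of the 8 members, with 8 starts in all. Each line holds the 250 bases before a start, 5′ to 3′ on the gene's strand. Capitals mark matches on either strand to the GC box GGGCGG or the CCAAT box CCAAT. Pygl is at chr12:70227684-70227933 on the minus strand, Gbe1 at chr16:70313699-70313948 on the plus strand, and Gys1 at chr7:45434589-45434838 on the plus strand. The start of Ugp2 near transcript Ugp2-202 is at chr11:21370630-21370879 and the one near Ugp2-201 at chr11:21371268-21371517, both on the minus strand.
Pygl: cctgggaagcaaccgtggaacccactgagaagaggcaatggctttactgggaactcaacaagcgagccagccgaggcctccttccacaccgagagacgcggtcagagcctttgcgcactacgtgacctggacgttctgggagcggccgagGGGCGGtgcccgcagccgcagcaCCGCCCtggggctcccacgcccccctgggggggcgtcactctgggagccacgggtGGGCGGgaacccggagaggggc
Gbe1: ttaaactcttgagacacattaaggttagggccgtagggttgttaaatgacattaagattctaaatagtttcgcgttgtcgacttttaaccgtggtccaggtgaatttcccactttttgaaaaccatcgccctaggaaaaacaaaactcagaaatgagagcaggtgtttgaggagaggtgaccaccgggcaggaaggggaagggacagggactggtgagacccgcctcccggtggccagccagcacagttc
Ugp2, start near Ugp2-202: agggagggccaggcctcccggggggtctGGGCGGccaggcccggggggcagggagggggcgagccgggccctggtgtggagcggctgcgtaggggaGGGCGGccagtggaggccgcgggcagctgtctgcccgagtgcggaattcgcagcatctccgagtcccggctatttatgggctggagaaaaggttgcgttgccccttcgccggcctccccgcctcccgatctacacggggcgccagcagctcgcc
Ugp2, start near Ugp2-201: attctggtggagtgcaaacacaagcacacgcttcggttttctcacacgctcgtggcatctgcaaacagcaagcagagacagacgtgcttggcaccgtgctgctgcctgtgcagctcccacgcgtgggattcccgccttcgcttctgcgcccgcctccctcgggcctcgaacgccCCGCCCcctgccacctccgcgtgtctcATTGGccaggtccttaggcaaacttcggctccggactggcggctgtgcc
Gys1: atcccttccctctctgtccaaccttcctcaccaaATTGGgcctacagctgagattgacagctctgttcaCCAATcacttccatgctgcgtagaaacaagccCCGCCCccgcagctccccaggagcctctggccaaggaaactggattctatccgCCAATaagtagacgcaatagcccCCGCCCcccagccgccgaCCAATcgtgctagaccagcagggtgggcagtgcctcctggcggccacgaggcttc

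The lower members did not share one motif content in these windows. Pygl held 3 GC boxes and no CCAAT box, whereas Gbe1 held neither. The window near Ugp2-202 held 2 GC boxes, and that near Ugp2-201 held 1 GC box and 1 CCAAT box. Gys1 held 2 GC boxes and 4 CCAAT boxes. Over all 32851 promoters of this length, 32.7% held a GC box and 33.9% a CCAAT box. GC content was 69.2% for Pygl, 48.8% for Gbe1, 73.6% and 64% for the Ugp2 windows near Ugp2-202 and Ugp2-201, and 60% for Gys1, beside a median of 52.4% over all promoters. The cAMP response element TGACGTCA, found in 1.55% of all promoters, the nuclear receptor half-site AAGGTCA, in 4.08%, and TATAAA, in 12.4%, were in none of the 8 member windows. The E-box CACGTG, in 6.02% of all promoters, was in 1 of the 8, that of Ppp1r3c. No marked box overlaps another. These are matches of letters in a fixed window, and no binding was measured.

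Pygl (ENSMUSG00000021069, chromosome 12, 70190811 to 70231488, minus strand), which carries out the rate-limiting step of glycogen breakdown, had 950 reads in the control library and 384 in the cold library. These are 559 RPM (524 to 596) and 316 (285 to 349), and the intervals are far apart. The fold of 2.01 lies on the 2-fold mark itself, and it was 1.77 (1.57 to 2.00) with total reads, 1.83 (1.62 to 2.07) with total reads without mitochondrially encoded genes and 2.04 (1.81 to 2.31) with DESeq2 size factors. Its direction and an interval below 1 were the same in all of these, and 4.94% of the genes tested had a lower ratio. Pygl is the liver form of the enzyme. Of the 7 liver markers, the 5 named above had no read in either library. Apoc3 had 10 and 6 reads, and Cyp2e1 had 16 and 44, a ratio of 3.39 (1.88 to 6.44). The ratio of the summed liver list was 2.37 (1.45 to 3.97). Whether liver RNA had a part in the Pygl value was not tested. Other adipocyte genes lay on both sides of 1. Of the general adipocyte genes on the brown adipocyte list, Plin1, the lipid droplet coat, was 1.12-fold higher (1.00 to 1.25). Fabp4, the adipocyte fatty acid binding protein, was 1.24-fold higher (1.22 to 1.27). The adipocyte hormone gene Adipoq was lower, at a ratio of 0.656 (0.587 to 0.733). Of the others on that list, Cox8b was lower, at 0.720 (0.685 to 0.757). Ucp1, at 1.21, Cidea, at 1.31, Elovl3, at 5.01, and Dio2, at 5.94, were higher, all with intervals above 1. The white adipocyte markers given above were split as well. Whether the share of adipocytes in the tissue had a part in the Pygl value was not tested.

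The other phosphorylase among the members, Pygb (chromosome 2, 150786735 to 150831758, plus strand), was the least abundant of the 8. It had 54 reads in the control library and 34 in the cold library, or 31.8 RPM (23.9 to 41.5) and 28.0 (19.4 to 39.1). The levels overlap, and the interval of the ratio of 0.776 (0.490 to 1.21) holds the ratio of Pygl, 0.498, as well as 1. The muscle form Pygm, which is not a member, went the other way with 21 and 41 reads, a ratio of 2.41 (1.39 to 4.29). The summed muscle markers had a ratio of 3.53 (3.24 to 3.84) in the same libraries, and their part in the Pygm value was not tested. Of all phosphorylase reads, Pygl took 92.7% (90.9 to 94.2) in the control library and 83.7% (80.0 to 86.9) in the cold library. Pygm took 2.05% (1.27 to 3.11) and 8.93% (6.49 to 11.9), and Pygb 5.27% (3.98 to 6.82) and 7.41% (5.18 to 10.2). The main transcripts of Pygb and Pygm share 38 words of 31 bases, 0.980% of those of Pygb. That of Pygl shares none with either. How well single reads of the 3 forms were told apart was not tested. The 88 words, or 3.15%, that Pygl shares with another gene belong to Gm47451, which had no read.

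**Figure D1:**
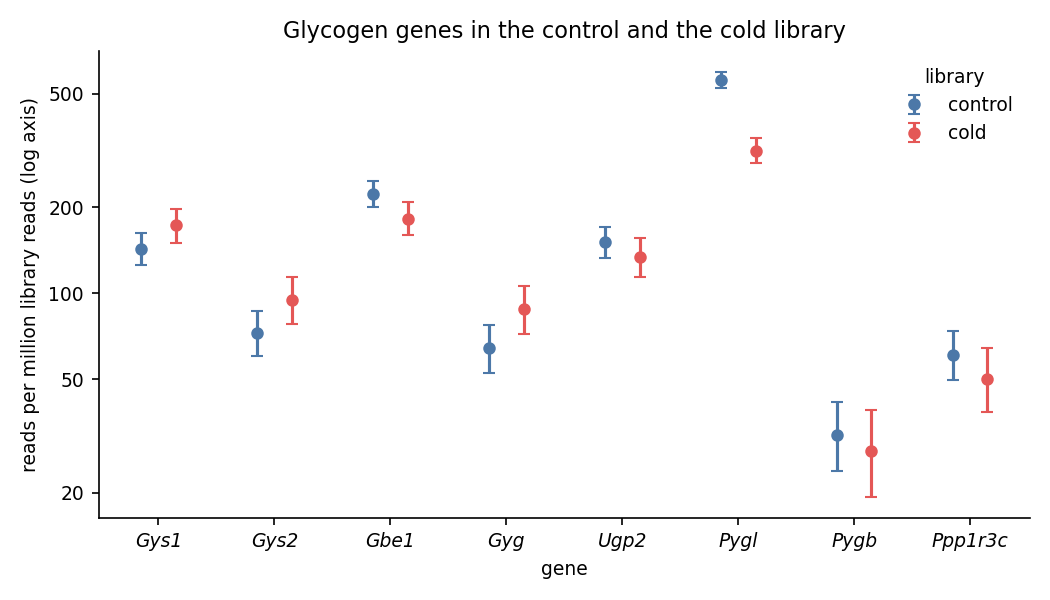
Level of each member in the control library (blue) and the cold library (red), in RPM on a log axis, with bars for 95% exact counting intervals and 1 library per group. Pygl stands highest in both libraries, at 559 and 316 RPM, and is the member whose control and cold intervals are farthest apart.

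Neither glycogen synthase gene had an interval below 1. Gys1 (chromosome 7, 45434844 to 45456619, plus strand) had 243 reads in the control library and 210 in the cold library, or 143 RPM (126 to 162) and 173 (150 to 198). Its scaled ratio was 1.07 (0.882 to 1.29), and the ratio of Pygl, 0.498, lies below the interval. The ratio of Gys1 was 1.21 (0.999 to 1.46) with total reads and 1.17 (0.966 to 1.41) with total reads without mitochondrially encoded genes. All these intervals spanned 1, so at this depth no difference could be detected, though the ratio moved with the scaling. Gys1 is the muscle form, and the higher muscle markers of the cold library stand beside these values, with their part in them not tested. Gys2 (chromosome 6, 142422613 to 142473109, minus strand) had 123 and 115 reads, or 72.4 (60.2 to 86.4) and 94.6 RPM (78.1 to 114). Its ratio was 1.15 (0.886 to 1.5), which became 1.31 (1.00 to 1.7) with total reads, with a lower bound just above 1.

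The intervals of the share of each synthase gene overlapped between the libraries. Gys1 made up 66.4% of synthase reads (61.3 to 71.2) in the control library and 64.6% (59.1 to 69.8) in the cold library. The ratio of Gys1 to Gys2 reads in the cold library over that in the control was 0.924 (0.667 to 1.28). The 2 genes share no word of 31 bases in their main transcripts. Gys1 overlaps Ruvbl2 on the opposite strand, a gene with 62 and 44 reads, and strand handling in the counting is not given in the sources used here.

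Gyg (chromosome 3, 20122084 to 20155317, minus strand), the self-glucosylating primer of the chain, had 109 reads in the control library and 107 in the cold library. Its levels of 64.2 (52.7 to 77.4) and 88.0 RPM (72.1 to 106) overlap, and the scaled ratio was 1.21 (0.918 to 1.60). With total reads the ratio was 1.37 (1.04 to 1.81), and with total reads without mitochondrially encoded genes 1.33 (1.01 to 1.75), both above 1.

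Of the synthesis enzymes among the members, Ugp2 and Gbe1 were those with intervals below 1 under TMM scaling. Ugp2 (chromosome 11, 21321138 to 21371201, minus strand), which makes the UDP-glucose that synthase uses, had 256 and 163 reads, or 151 (133 to 170) and 134 RPM (114 to 156). The levels overlap, and the scaled fold of 1.27 lower became 1.12 lower (0.920 to 1.38) with total reads and 1.16 (0.951 to 1.42) with total reads without mitochondrially encoded genes. UDP-glucose also serves glycoprotein and glucuronide synthesis. Gbe1 (chromosome 16, 70313949 to 70569716, plus strand), which adds the branches, had 379 and 222 reads, or 223 (201 to 247) and 183 RPM (159 to 208). Its fold of 1.38 lower was 1.22 (1.03 to 1.45) with total reads and 1.26 (1.07 to 1.5) with total reads without mitochondrially encoded genes, and the interval stayed below 1 in both.

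Ppp1r3c (chromosome 19, 36731731 to 36736653, minus strand), the targeting subunit known as PTG, had 103 reads in the control library and 61 in the cold library. These are 60.7 (49.5 to 73.6) and 50.2 RPM (38.4 to 64.5). The ratio of 0.730 (0.523 to 1.01) just reached 1, and with DESeq2 size factors it was 0.717 (0.514 to 0.993).

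Since the scaling moves all ratios together, reads of the other members were also set against Pygl reads within each library, a comparison chosen after the values were seen and free of any scaling. Pygl had the lowest ratio of the 8 members, so factors above 1 for the other 7 follow from that choice, and only their sizes are described. In reads per read of Pygl, cold over control, the factor was 2.43 for Gyg (1.79 to 3.29), 2.31 for Gys2 (1.73 to 3.09) and 2.14 for Gys1 (1.71 to 2.68). It was smaller for Ugp2 at 1.58 (1.24 to 1.99), Ppp1r3c at 1.47 (1.03 to 2.08) and Gbe1 at 1.45 (1.18 to 1.78), and that of Pygb was 1.56 (0.966 to 2.48). These factors share the Pygl counts and so move together. For synthase against phosphorylase, Gys1 and Gys2 together had 366 reads per 1004 of Pygl and Pygb in the control library and 325 per 418 in the cold library. That is 0.365 and 0.778 reads of Gys1 and Gys2 per read of Pygl and Pygb, a factor of 2.13 (1.76 to 2.58). Pygl supplied 950 of the 1004 reads and 384 of the 418, so a factor above 1 again follows from that choice. Pygm, with 21 and 41 reads, is not in this factor.

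**Figure D2:**
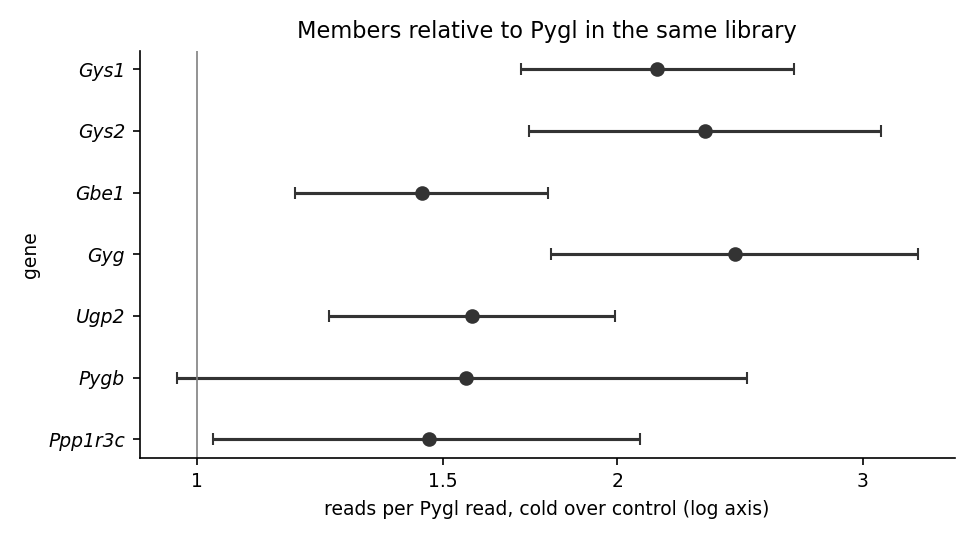
Reads of each other member per read of Pygl, given as the value in the cold library over that in the control on a log axis, with bars for 95% exact conditional intervals of the odds ratio. Points lie right of 1 because Pygl, the member with the lowest ratio, was taken as the reference, and their sizes run from 1.45 for Gbe1 to 2.43 for Gyg.

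Per kilobase of each gene's most abundant transcript, the order of levels was the same in both libraries: Pygl, Gbe1, Ugp2, Gys1, Gyg, Gys2, Ppp1r3c and Pygb. In the control it ran from 198 RPM per kilobase for Pygl (186 to 211) over 74.8 for Gbe1 to 8.14 for Pygb (6.11 to 10.6), and in the cold library from 112 (101 to 124) over 61.2 to 7.16 (4.96 to 10). The distance from Pygl to Gbe1 was thus smaller in the cold library, although their intervals were apart in both. Among neighbours, the intervals of Gys1 and Gyg, of Gyg and Gys2, and of Gys2 and Ppp1r3c overlapped in the control. In the cold library those of Gbe1 and Ugp2, Ugp2 and Gys1, Gys1 and Gyg, and Gyg and Gys2 overlapped. A nanopore read stands for 1 RNA molecule whatever its length, so the order by molecules is the one by reads alone. By reads alone Gys2 stood above Gyg in both libraries. Ugp2 stood above Gys1 in the control and Gys1 above Ugp2 in the cold library, with overlapping intervals in both. The order by reads thus differed between the libraries, within counting error. Genes with a main transcript of 2 to 3 kb, the class of Pygl, had a median log2 ratio of 0.01 over 1602 genes, and the medians of the other length classes lay between -0.14, for 618 genes up to 1 kb, and 0.06, for 1238 genes of 3 to 4 kb.

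The annotated transcripts that carried the reads were the same in both libraries for the main forms. Pygl-201, which has 2550 coding bases, took 76% of Pygl reads (73.2 to 78.7) in the control, on 722 reads, and 78.1% (73.7 to 82.2) in the cold library, on 300. Pygl-202 starts 3805 bases upstream, ends within 8 bases of Pygl-201, and encodes a protein shorter by 91 codons. It took 23.3% (20.6 to 26.1) and 21.9% (17.8 to 26.3), on 221 and 84 reads. Both forms were lower in the cold library, by 1.95-fold (1.7 to 2.24) for Pygl-201 and by 2.13-fold (1.65 to 2.78) for Pygl-202. Transcripts that differ at the 5′ end are told apart only by reads that reach it. How reads that match several transcripts were handled is not given. These folds therefore cannot show whether the lower value of the gene rested on 1 form. The long non-coding gene F730035M05Rik overlaps the first part of Pygl on the opposite strand and had no read.

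Ugp2 was the member with the largest difference in transcript shares, though it did not go beyond counting error. Ugp2-202 has 2683 bases and ends 535 bases farther downstream than Ugp2-201, which has 2044 bases, and its start lies 724 bases inside that of Ugp2-201. Ugp2-202 had 167 reads in the control library and 119 in the cold library, and Ugp2-201 had 89 and 43. The share of Ugp2-202 was 65.2% (59.1 to 71.1) and 73.0% (65.5 to 79.7), a difference of 7.77 percentage points with an interval of -1.40 to 16.4 by Newcombe's method. Taken singly, Ugp2-201 was 1.68-fold lower (1.15 to 2.48), and the interval of Ugp2-202 spanned 1, at 1.14-fold lower (0.894 to 1.45). Since the interval of the share difference spans 0, the 2 forms are not shown to differ from each other. The RefSeq starts printed above lie 152 bases from the start of Ugp2-202 and 66 from that of Ugp2-201.

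Gyg was the member with the most even split of assigned reads. The starts of Gyg-201 and Gyg-203 lie 221 bases apart and their ends 3, so the split depends on reads that reach the 5′ end. Gyg-201 took 54.1% of its reads (44.3 to 63.7) in the control library and 53.3% (43.4 to 63.0) in the cold library, and Gyg-203, whose coding part is shorter by 44 codons, took 45.0% (35.4 to 54.8) and 43.9% (34.3 to 53.9). Gbe1-203 took 86.3% of Gbe1 reads (82.4 to 89.6) and 86.9% (81.8 to 91.1), and Gbe1-201, which encodes a protein of the same length from a start 138 bases downstream, took most of the rest. Gys1-201 took 98.8% of Gys1 reads (96.4 to 99.7) and 99.5% (97.4 to 100). Gys2, Pygb and Ppp1r3c each had reads on 1 transcript. No share of a main form differed between the libraries beyond its interval.

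**Figure D3:**
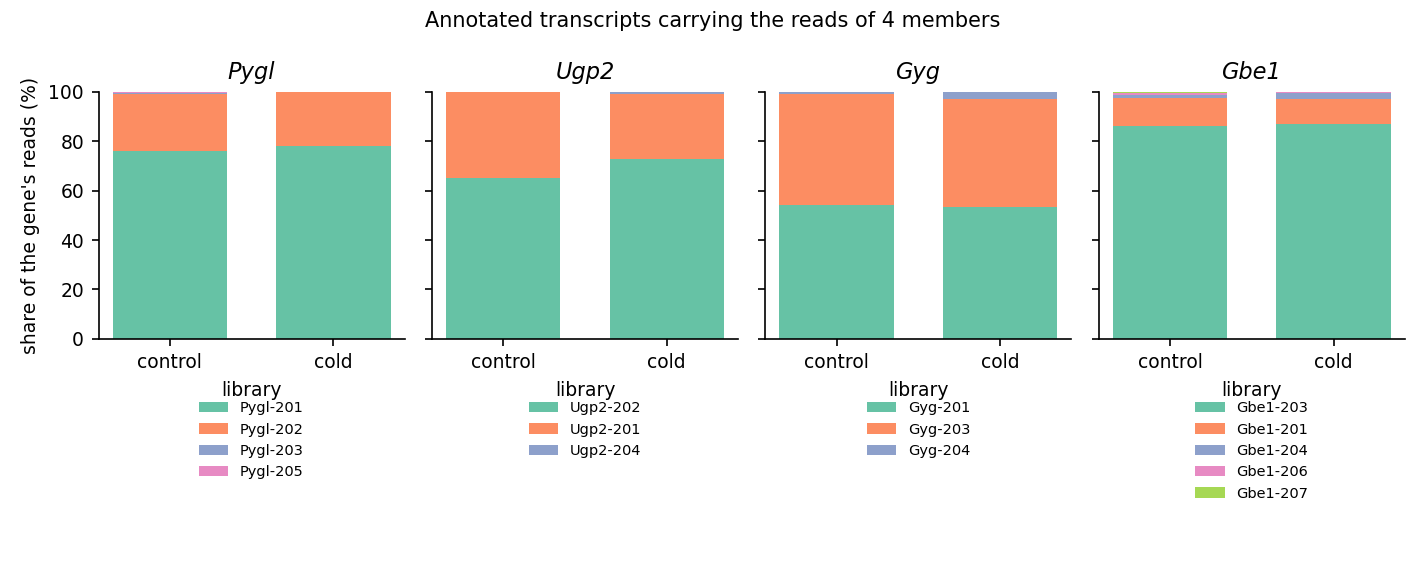
Share of the reads of Pygl, Ugp2, Gyg and Gbe1 on each annotated transcript, in percent of the gene's reads, in the control library and the cold library. The bars of Ugp2 differ most, with 65.2% and 73.0% on Ugp2-202, and those of Gbe1-203, at 86.3% and 86.9%, differ least among the leading forms.

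The members were then read beside 41 further genes of glycogen metabolism, listed by role. Of these 29 passed the minimum, with 7 intervals below a ratio of 1, 6 above and 16 that spanned it, and a median log2 ratio of -0.05. Over all genes tested, 11.3% lay below and 11.3% above. With total reads, 4 of the 29 lay below and 9 above, beside 6.20% and 18.1% of all genes tested.

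Among the phosphatase subunits that bind glycogen, Ppp1r3b, the form known from liver, was more abundant than the member Ppp1r3c. It had 281 reads in the control library and 128 in the cold library, and was 1.78-fold lower (1.44 to 2.21). Ppp1r3b took 65.3% of the reads of the 7 Ppp1r3 subunits listed (60.6 to 69.8) in the control library and 54.9% (48.3 to 61.4) in the cold library, and Ppp1r3c took 24.0% (20.0 to 28.3) and 26.2% (20.7 to 32.3). Ppp1r3d, with 38 and 36 reads, had a ratio of 1.17 (0.720 to 1.89). The muscle form Ppp1r3a had 3 and 2 reads, Ppp1r3e 4 and 2, Ppp1r3f 1 and 3, and Ppp1r3g 0 and 1, too few to compare. Of the catalytic subunits, which also act away from glycogen, Ppp1ca was 1.41-fold lower (1.2 to 1.66), Ppp1cb was at a ratio of 1.42 (1.14 to 1.77), and Ppp1cc was at 1.25 (0.905 to 1.72).

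The genes that exchange glucose, its phosphates and the store also differed among themselves. Slc37a4, which carries glucose 6-phosphate into the endoplasmic reticulum, had 43 and 9 reads and was 3.87-fold lower (1.86 to 9.04), or 2.57-fold lower from its most abundant transcript, on 19 and 6 reads with an interval that reached 1. G6pc, the glucose 6-phosphatase of liver, had no read, which allows up to 1.77 RPM in the control library and 2.47 in the cold library. The widely expressed G6pc3 had a ratio of 0.979 (0.672 to 1.42). Hk2, the hexokinase that makes glucose 6-phosphate, had 306 and 176 reads and was 1.41-fold lower (1.17 to 1.71). Pgm1, which links glucose 6-phosphate and glucose 1-phosphate, had 327 and 256 reads and a ratio of 0.965 (0.817 to 1.14).

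Among the other breakdown enzymes, Gaa, the lysosomal glucosidase that digests glycogen there, had 59 and 78 reads and a ratio of 1.63 (1.15 to 2.33).

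Phosphorylase kinase, which activates phosphorylase, was thinly covered. Its subunits Phka1, Phka2, Phkb and Phkg2 had 11 to 38 reads in the control library and 11 to 24 in the cold library. All 4 intervals spanned 1, that of Phka2, at a ratio of 0.552 (0.292 to 1.00), only just. With DESeq2 size factors the interval of Phka2 lay below 1, at 0.542 (0.287 to 0.983). Phkg1, its muscle subunit, had 1 and 1 read. Of genes for calmodulin, which is a subunit of this kinase and of many other proteins, Calm2 had a ratio of 1.69 (1.35 to 2.14) and Calm3 of 0.803 (0.584 to 1.10).

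Among kinases that phosphorylate glycogen synthase or act upstream of it, the 2 forms of glycogen synthase kinase 3 lay on opposite sides. Gsk3a had 186 and 254 reads, a ratio of 1.68 (1.39 to 2.05). Gsk3b had 53 and 26 reads and was 1.65-fold lower (1.02 to 2.75), with an interval that reached 1 with both total-read scalings and from its most abundant transcript. Prkaa2, a catalytic subunit of the AMP-activated kinase that is prominent in muscle, had 18 and 35 reads, a ratio of 2.40 (1.32 to 4.50), beside the higher muscle markers, whose part in it was not tested. Prkaca, the catalytic subunit of the cAMP-dependent kinase, had 390 and 267 reads and was 1.18-fold lower (1.01 to 1.39), which reached 1 with both total-read scalings. The remaining 6 genes of this group with enough reads had intervals that spanned 1. Laforin (Epm2a) and malin (Nhlrc1), which guard against poorly branched glycogen, had 7 and 3 reads in the control library and 5 and 4 in the cold library.

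**Figure D4:**
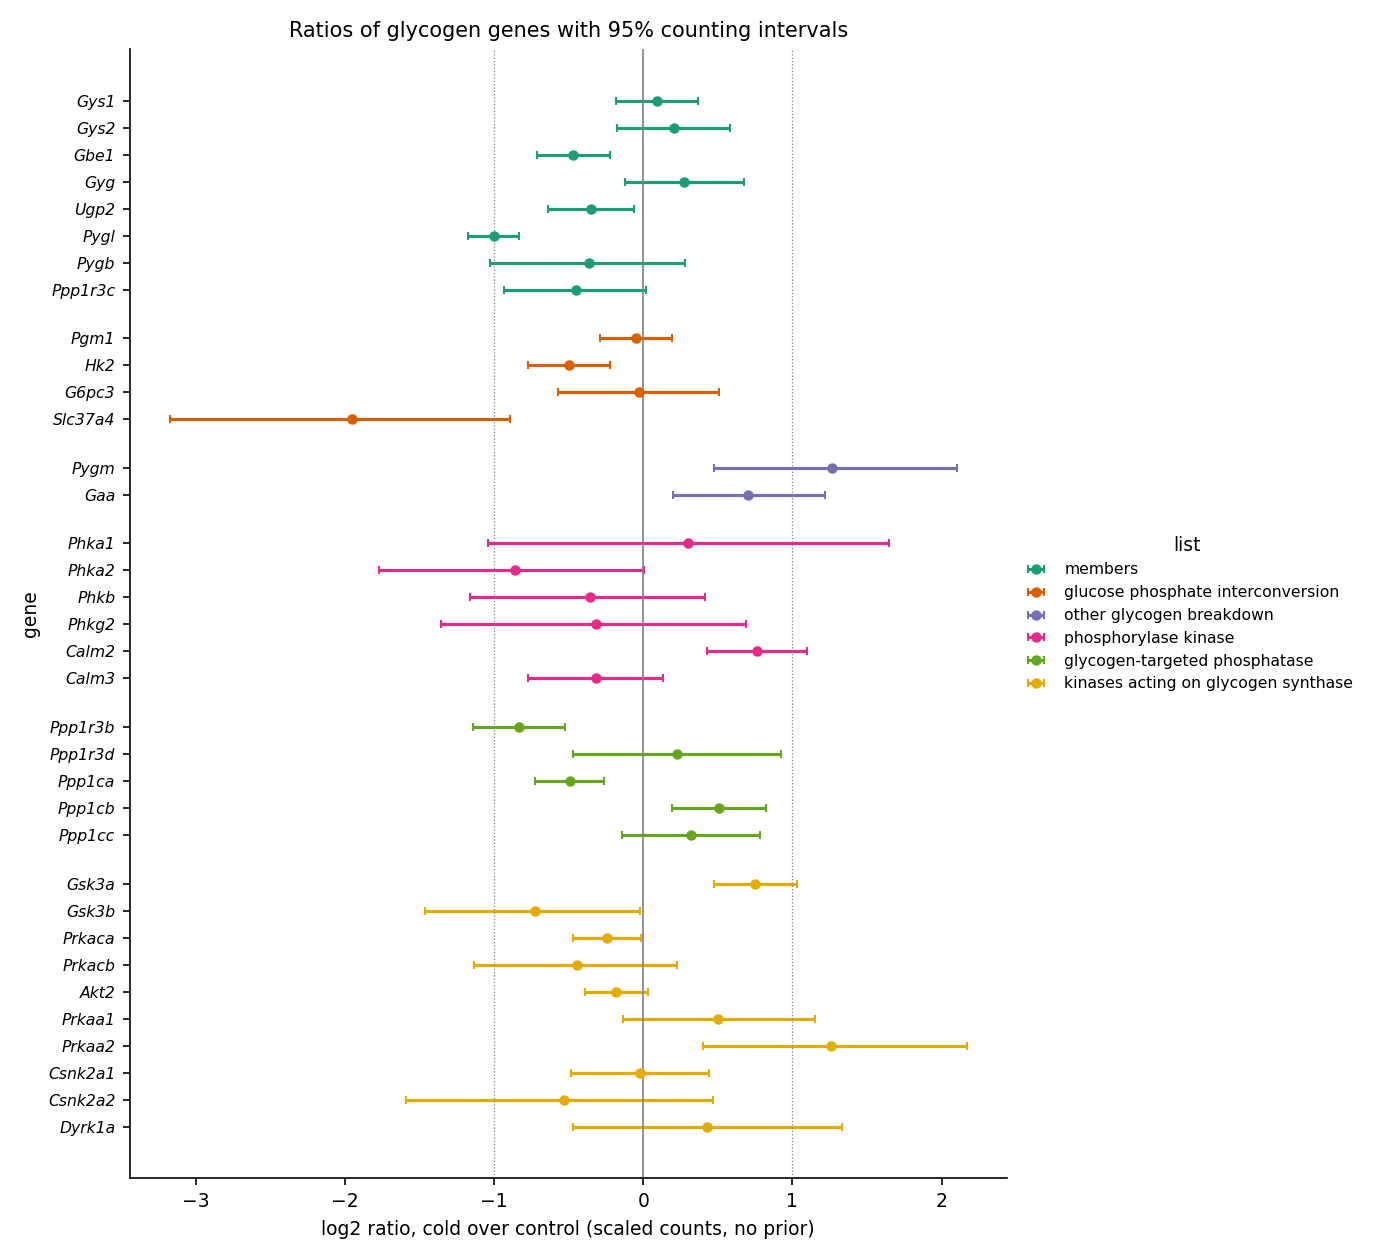
Ratio of the cold to the control library on a log2 axis for the 8 members and 27 of the 29 other glycogen genes with at least 20 summed reads, grouped by role, with bars for 95% counting intervals and dotted lines at 2-fold. Pygl has the narrowest bar of the members and sits at the 2-fold line, and Slc37a4 lies farthest to the left.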

How the data were processed

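Whole-number read counts per transcript were deposited by the authors, not normalized, with 1 as the lowest count listed. The submitters' processing notes name minimap2 and GRCm38. The sources used here do not give the version, the annotation release or how reads that match several transcripts were handled. Transcripts were joined by identifier without version to GENCODE M21 (GRCm38), leaving 0.0571% of control reads and 0.0652% of cold reads without a gene, and summed to genes. Coordinates count from 1.

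Libraries were scaled with TMM factors of edgeR 4.0.16 in R 4.3.3. Log2 ratios carry a prior of 0.5 reads. Ratio intervals were derived from Clopper-Pearson intervals of the cold reads among the reads of both libraries (scipy 1.17.1), and that of a difference of transcript shares is Newcombe's. A count of 0 was given a limit of 3 reads. The ratio intervals were tested on simulated counts with counting error alone and known library sizes. That test could not address differences between mice or error in the scaling. Alternatives were total reads, total reads without mitochondrially encoded genes, DESeq2 1.42.0 size factors, 1 transcript per gene, protein-coding transcripts, a prior of 2 reads, minimums of 1 and 50 reads and 1.5-fold.

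The members and lists were chosen with earlier results of these data known. Named are all members and, of the 41 other genes, those with an interval off 1, Pygm and the Ppp1r3 subunits. Of these 41 genes, 2 that passed the minimum are counted but not reported here singly. Other genes named in the text were added after their values were seen. Of 5 white adipocyte symbols listed, 3 are in the annotation. Promoters are from RefSeq, and 1 member had no entry.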

Additional observations from a re-analysis of the deposited data

How the results depend on the processing

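Of 48 member values under 6 settings, 40 kept their direction, their side of 1 and a place within the main interval. Part of this agreement was fixed in advance. The prior enters the log2 ratio but not the interval. Gys2, Pygb and Ppp1r3c had reads on 1 transcript each, so both transcript settings left their counts unchanged. All reads of Gys1 and Gyg were on protein-coding transcripts, so that setting left theirs unchanged too. Total reads gave log2 ratios of 0.39 for Gys2 and 0.46 for Gyg, both with intervals above 1, -0.17 for Ugp2, whose interval then spanned 1, and -0.82 for Pygl, still below 1. Total reads without mitochondrially encoded genes gave 0.41 for Gyg, above 1, and -0.22 for Ugp2, spanning 1. The most abundant transcript alone gave -0.18 for Ugp2, spanning 1, and DESeq2 size factors gave -0.48 for Ppp1r3c, below 1. The count of members at least 2-fold lower was 0 in place of 1 with total reads, with total reads without mitochondrially encoded genes, from the most abundant transcript and from protein-coding transcripts, because Pygl lies on that mark (1.99-fold from protein-coding transcripts). Members with an interval above 1 numbered 2 with total reads and 1 with total reads without mitochondrially encoded genes, in place of 0. The other pathway genes below 1 numbered 4 under both these scalings in place of 7. Of all genes tested, 18.1% lay above 1 with total reads and 15.7% with total reads without mitochondrially encoded genes. Below 1 lay 6.20% and 7.45%, and 2.50% and 2.89% were at least 2-fold lower with an interval off 1. The member median was -0.17 and -0.22 under these total-read scalings. No setting reversed the sign of a member whose interval excluded 1. With 1 library per group, no library could be left out. No paired analysis was possible because each group holds 1 library. Depth limits the members with few reads most, Pygb and Ppp1r3c.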
